A study of Homo sapiens with 2 samples.

Results

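The subject is the replicative DNA helicase of K562 cells, through its 10 core subunit genes: MCM2, MCM3, MCM4, MCM5, MCM6 and MCM7, which form a ring, and GINS1, GINS2, GINS3 and GINS4, which form a clamp on its side. Members were taken by gene symbol from the platform's probe annotation. All 10 had a probe set on the array, 23 probe sets in all of 54675, and 0 of these were annotated to a second gene. All 10 genes counted as expressed, among 12774 expressed genes in the series. K562 is a human erythroleukemia line that carries the BCR-ABL fusion and lacks working p53. The group of interest was 1 culture of K562 given 3 µg of a miR-34a mimic (Dharmacon) by nucleofection, an electrical transfer of nucleic acid into cells. Its reference was 1 culture given 3 µg of a control mimic in the same way, a sequence without homology to human genes. Total RNA was collected after 24 hours and read on Affymetrix arrays, so each group held 1 array, every value is a single measurement, and no test between the groups was possible. Both cultures were transfected, and an untransfected culture was not analysed here.

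Before DNA is copied, MCM2 to MCM7 are loaded around DNA as an inactive double ring by the origin recognition complex with CDC6 and CDT1. At the start of S phase the kinases CDC7, with its partner DBF4, and CDK2 allow CDC45 and GINS to join each ring, and the assembled CDC45-MCM-GINS complex unwinds DNA ahead of the polymerases. Cells hold more MCM rings than they fire, and the spare ones act as a reserve when forks stall. The genes are classical targets of E2F transcription factors, and dividing cells express them strongly. miR-34a is a microRNA that p53 induces, and it represses mRNAs by base pairing of its seed, bases 2 to 8 from the 5′ end, usually in the 3′ untranslated region.

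The sequence that set the groups apart is shown first. The RefSeq mature miR-34a-5p (GRCh38.p14, 9151735 to 9151756 on the minus strand of chromosome 1, 5′ to 3′) has its seed in capitals, and the mimic's own chemistry is not given in the sources used here.
hsa-miR-34a-5p: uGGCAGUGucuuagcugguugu
Matches to this seed in member mRNAs were not analysed here, since no transcript sequences were used.

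The promoters of the 2 members lowest after miR-34a, MCM3 and GINS3, are shown beside that of MCM6, the MCM gene with the highest ratio, because these members of one E2F-regulated group differed in ratio. Each window runs from 250 bases before to 50 after the RefSeq start (GRCh38.p14): chr6:52284693-52284992 (minus strand), chr16:58392221-58392520 (plus strand) and chr2:135876394-135876693 (minus strand), each printed 5′ to 3′ along the gene. Capitals mark matches on either strand to the E2F words TTTCCCGC, TTTGGCGC, TTTCGCGC and TTTGCCGC, and matches overlap in MCM6 and in MCM2, which is not printed.
MCM3: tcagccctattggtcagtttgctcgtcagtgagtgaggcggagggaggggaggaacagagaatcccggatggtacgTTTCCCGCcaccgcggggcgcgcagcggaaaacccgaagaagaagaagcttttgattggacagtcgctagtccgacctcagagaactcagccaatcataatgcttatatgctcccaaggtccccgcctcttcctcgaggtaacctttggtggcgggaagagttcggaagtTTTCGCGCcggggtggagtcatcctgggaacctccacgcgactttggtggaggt
GINS3: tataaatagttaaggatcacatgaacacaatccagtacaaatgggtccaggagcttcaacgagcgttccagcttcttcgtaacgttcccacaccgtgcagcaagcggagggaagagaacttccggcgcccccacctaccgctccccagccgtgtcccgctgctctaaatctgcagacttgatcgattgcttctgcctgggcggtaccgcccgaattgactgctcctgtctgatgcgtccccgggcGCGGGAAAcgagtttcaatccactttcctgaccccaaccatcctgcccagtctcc
MCM6: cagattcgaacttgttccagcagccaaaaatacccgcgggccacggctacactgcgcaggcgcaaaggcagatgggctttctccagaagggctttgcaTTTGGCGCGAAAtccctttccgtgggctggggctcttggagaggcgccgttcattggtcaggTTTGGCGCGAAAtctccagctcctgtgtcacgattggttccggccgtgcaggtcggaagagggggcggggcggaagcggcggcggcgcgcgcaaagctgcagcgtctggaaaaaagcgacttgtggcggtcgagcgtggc
Such a word was present in 7 of 9 member windows, against 3.31% of 35116 windows of all genes. By gene, all 7 members that the promoter table held had a window with one (MCM2, MCM3, MCM6, MCM7, GINS1, GINS2 and GINS3). MCM6 had 4 matches, MCM2 and MCM3 had 2 each, GINS1, GINS2 and GINS3 had 1 each, and 1 of the 3 MCM7 windows had 2. Of these 7 members MCM6 had the log2 ratio closest to 0, at 0.066. No window was available for MCM4, MCM5 and GINS4, which were at 0.025, -0.19 and 0.16 and include other members near 0. A relation between matches and ratios was not tested. A match is a description of letters and not of binding.

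The subunits did not have even ratios. MCM3, a ring subunit, and GINS3 had signals after miR-34a of 0.433 and 0.397 times the control signal, at log2 ratios (miR-34a minus control) of -1.20 and -1.26. MCM2 and GINS1 were lower by more than 1.5-fold, at -0.68 and -0.79. GINS2, MCM7 and MCM5 lay between -0.32 and -0.19, while MCM4, MCM6 and GINS4 were at 0.025, 0.066 and 0.16. A log2 ratio here is the difference of log2(signal + 14.9) between the arrays, less 0.0090, the median of all expressed genes. It shrinks the change of dim probe sets. In bulk RNA such as this, fewer cells expressing a gene, including fewer cells in S phase, and less RNA per cell cannot be told apart.

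In counts, 2 of 10 members were at least 2-fold lower after miR-34a, against 0.548% of all 12774 expressed genes, and 0 were at least 2-fold higher, against 0.595%. At 1.5-fold, 4 of 10 were lower, against 3.01% of all expressed genes, and 0 were higher, against 3.28%. The members' median log2 ratio was -0.28, against 0 for all expressed genes, which is 0 by the centring. The median was -0.22 for the 6 MCM genes. On their brightest probe sets 4 of these were lower and 2 higher, against 50% lower among all expressed genes. The higher ones were MCM4 and MCM6. MCM4 was at -0.12 as a mean over its expressed probe sets and is given no direction. The median was -0.55 for the 4 GINS genes, of which 3 were lower. The fourth, GINS4, had 0.16 by its brightest probe set and -0.052 as a mean over its expressed probe sets, and is given no direction. In order of their ratios, the widest gaps between neighbours were 0.41, from MCM3 to GINS1, and 0.36, from MCM2 to GINS2. The next widest, from MCM5 to MCM4, was 0.22. All were under 0.64, the difference below which the 2 brightest probe sets of a gene stayed in 95% of genes. MCM3 and GINS3 were singled out from earlier results of these same arrays, so their low position is a description.

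In yeast, MCM3 is the subunit through which the ring docks on the origin recognition complex and CDC6 during loading. Its only probe set (201555_at) read 792 in miR-34a cells and 1828 in control cells, a signal ratio of 0.433. When the expressed probe sets were cut into 10 bins of equal size by mean level, it fell in the brightest bin. Of the 2731 probe sets in that bin, that of MCM3 included, 0.110% were at least 2-fold lower. The central 95% of that bin lay between -0.50 and 0.43 on the log2 ratio scale, and MCM3 lay below it. With a single probe set, no second reading of MCM3 exists on these arrays.

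MCM5 stands next to MCM3 in the ring and forms a stable pair with it when the ring is taken apart. It read 1254 in miR-34a cells and 1424 in control cells on its brightest probe set (216237_s_at), and 425 in miR-34a cells and 486 in control cells on the other (201755_at). The log2 ratios were -0.19 and -0.20. Both probe sets were slightly lower after miR-34a, and they differed by 0.0062 from each other. The log2 ratio of MCM3 minus that of MCM5 was -1.01. For scale, the ratios of a gene's 2 brightest probe sets differed by a median of 0.16, and by less than 0.64 in 95% of 5494 genes, which covers technical disagreement between probe sets and not differences between cultures.

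MCM2 forms the ring's DNA entry gate with MCM5 and carries a tail that binds histones H3 and H4. It read 1291 in miR-34a cells and 2070 in control cells on its single probe set, a log2 ratio of -0.68. This lay below the central 95% of the brightest bin, the same bin as MCM3. The log2 ratio of MCM2 minus that of MCM5 was -0.49, and MCM3 minus MCM2 was -0.52, both within that 95% range for probe sets of 1 gene.

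MCM4, MCM6 and MCM7 can form a helicase of their own in the test tube. MCM4, whose tail is a main substrate of the CDC7 kinase, read 1706 in miR-34a cells and 1666 in control cells on its brightest probe set (222036_s_at). Its next 2 probe sets, 212141_at and 222037_at, read 577 and 442 in miR-34a cells against 560 and 415 in control cells. All 3 were slightly higher after miR-34a, at log2 ratios of 0.025, 0.033 and 0.077. A dimmer one (212142_at) differed in sign, with 77.8 in miR-34a cells, just above the background of 75.4 set by the brightest of 27 bacterial probe sets, and 125 in control cells, a log2 ratio of -0.61. The fifth (242479_s_at) read 19.3 in miR-34a cells and 18.3 in control cells and was under the filter on dim probe sets. The mean log2 ratio over the 4 expressed probe sets of MCM4 was -0.12, so its sign depends on the probe sets used.

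MCM6 read 2974 in miR-34a cells and 2823 in control cells on 201930_at, a log2 ratio of 0.066. Its other probe set (238977_at) read 64.1 in miR-34a cells and 48.3 in control cells. Neither signal exceeded background, so its log2 ratio of 0.31 carries no direction. MCM7, the subunit that is ubiquitylated when the helicase is taken off DNA, read 2990 in miR-34a cells and 3514 in control cells on 208795_s_at. On 210983_s_at it read 1734 in miR-34a cells and 2143 in control cells. The log2 ratios of MCM7 were -0.24 and -0.31, so both were lower by a little, and both lay within the central 95% of their bin. On their brightest probe sets the ratio of MCM4 minus that of MCM6 was -0.041, and that of MCM3 minus MCM6 was -1.27, the ends of the ring's range.

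**Figure D1:**
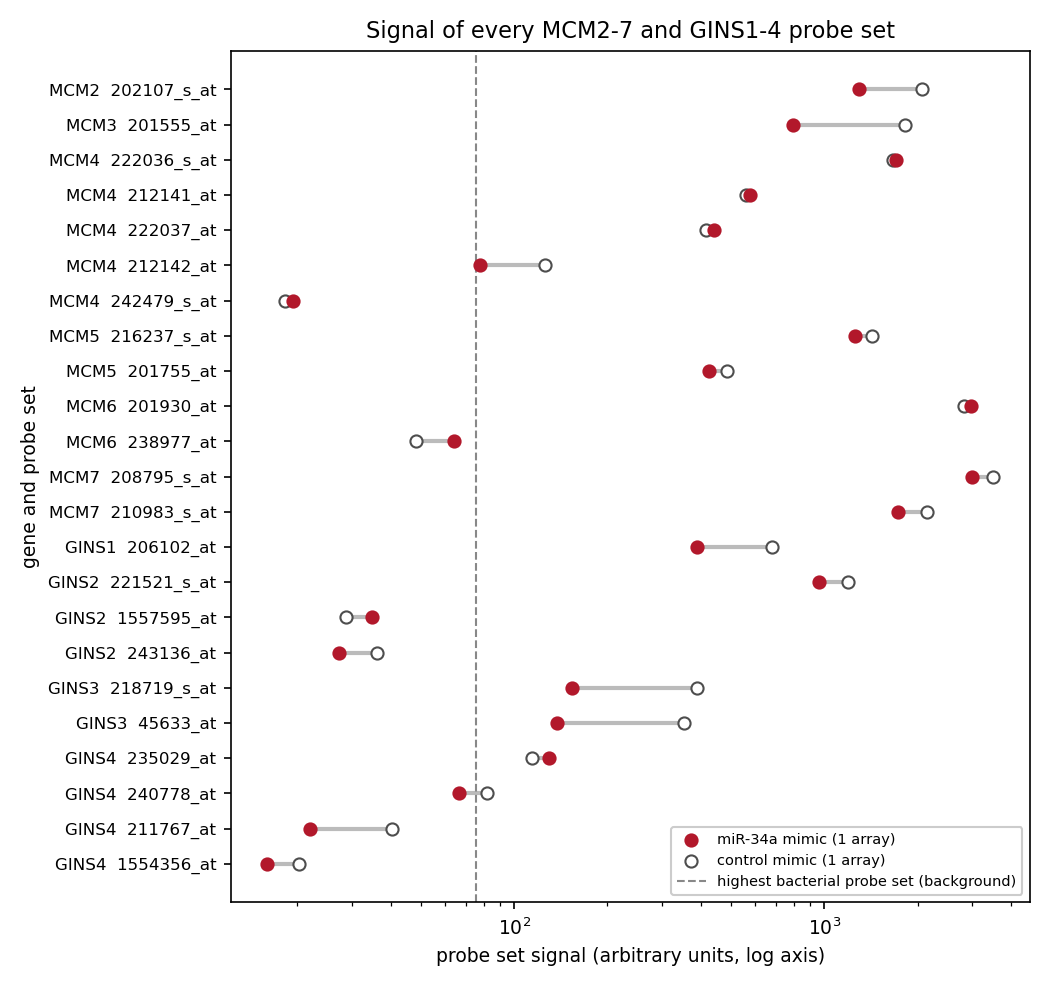
Signal of each of the 23 probe sets (arbitrary units, log axis) after the miR-34a mimic (filled) and the control mimic (open), 1 array each, with the highest bacterial probe set, 75.4, as the dashed background line. The widest gaps among probe sets above background on both arrays are those of MCM3, at 792 (miR-34a) and 1828 (control), and of both GINS3 probe sets.

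GINS is a complex of 4 small related proteins that holds CDC45 and the MCM ring together and contacts the leading-strand polymerase. GINS3, known as PSF3 in yeast, sits, in yeast structures, where GINS meets the ring near MCM3 and MCM5. It read 154 in miR-34a cells and 388 in control cells on its brightest probe set (218719_s_at). On the other (45633_at) it read 137 in miR-34a cells and 352 in control cells. The signal ratios were 0.397 and 0.389, and the log2 ratios of -1.26 and -1.28 differed by 0.018. Both readings were low after miR-34a, below the central 95% of their bin (-0.67 to 0.66). Of the probe sets in that bin, those of GINS3 included, 0.659% were at least 2-fold lower.

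GINS1, or PSF1, carries the domain needed to join GINS to CDC45 and the ring. It read 390 in miR-34a cells and 679 in control cells on its single probe set (206102_at), a log2 ratio of -0.79. The central 95% of its bin ended at -0.70, so GINS1 lay just outside. GINS2, or PSF2, read 959 in miR-34a cells and 1196 in control cells on 221521_s_at, a log2 ratio of -0.32, inside the range of its bin. Its other probe sets, 1557595_at and 243136_at, were under the filter and read between 27.3 and 36.2 on either array.

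GINS4, the human SLD5, was the member whose probe sets lay nearest to background. It read 130 in miR-34a cells and 114 in control cells on its brightest probe set (235029_at), a log2 ratio of 0.16. The next (240778_at) read 66.6 in miR-34a cells, within background, and 82.0 in control cells, a log2 ratio of -0.26. The remaining probe sets, 211767_at and 1554356_at, read 22.0 and 16.0 in miR-34a cells against 40.3 and 20.2 in control cells and were under the filter. The probe sets of GINS4 disagreed in sign, and their mean log2 ratio was -0.052, so no direction is given for this gene. Its distance from GINS3, -1.42 for GINS3 minus GINS4, is the range of the complex. It rests on GINS4: under a stricter filter (75th percentile), which leaves this gene out, the range was 0.94.

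**Figure D2:**
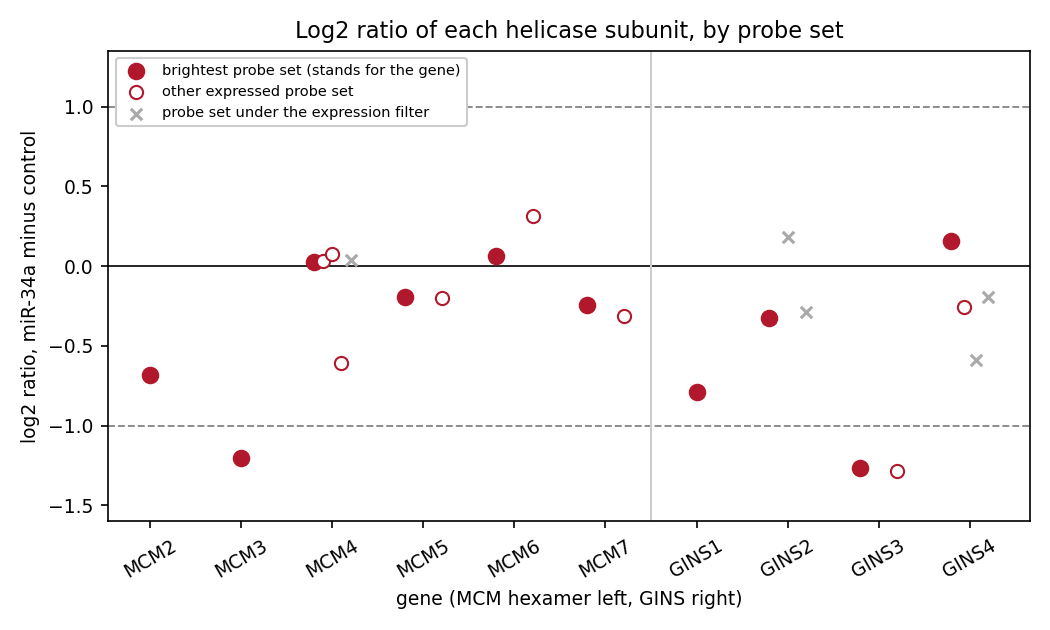
Log2 ratio (miR-34a minus control) of each probe set by gene, with the brightest probe set filled, other expressed ones open, and those under the filter as crosses. Dashed lines mark 2-fold, and only MCM3 and both GINS3 probe sets lie below the lower one.

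Of all 23 probe sets, 18 passed the filter on dim signal, which kept the upper 50% of probe sets by mean level. Of these 18, 12 were lower and 6 higher after miR-34a, beside 50% lower among all expressed genes. The share of all expressed probe sets that were lower is not given here. At least 2-fold lower were 3, against 0.505% of 27307 expressed probe sets, and 0 were at least 2-fold higher, against 0.531%. Beyond the central 95% of their bin by level lay 6 member probe sets on the low side, from MCM2, MCM3, MCM4, GINS1 and GINS3, and 0 on the high side. The one from MCM4 was the dim 212142_at, and its 3 brighter probe sets were near 0. Of the 6 members with 2 or more expressed probe sets, 4 had all of them on one side of 0, namely MCM5, MCM6, MCM7 and GINS3. For MCM6 this rests on the probe set within background on both arrays, whose ratio carries no direction. MCM2, MCM3, GINS1 and GINS2 had 1 expressed probe set each, so 3 of the 4 lowest genes rest on 1 reading.

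**Figure D3:**
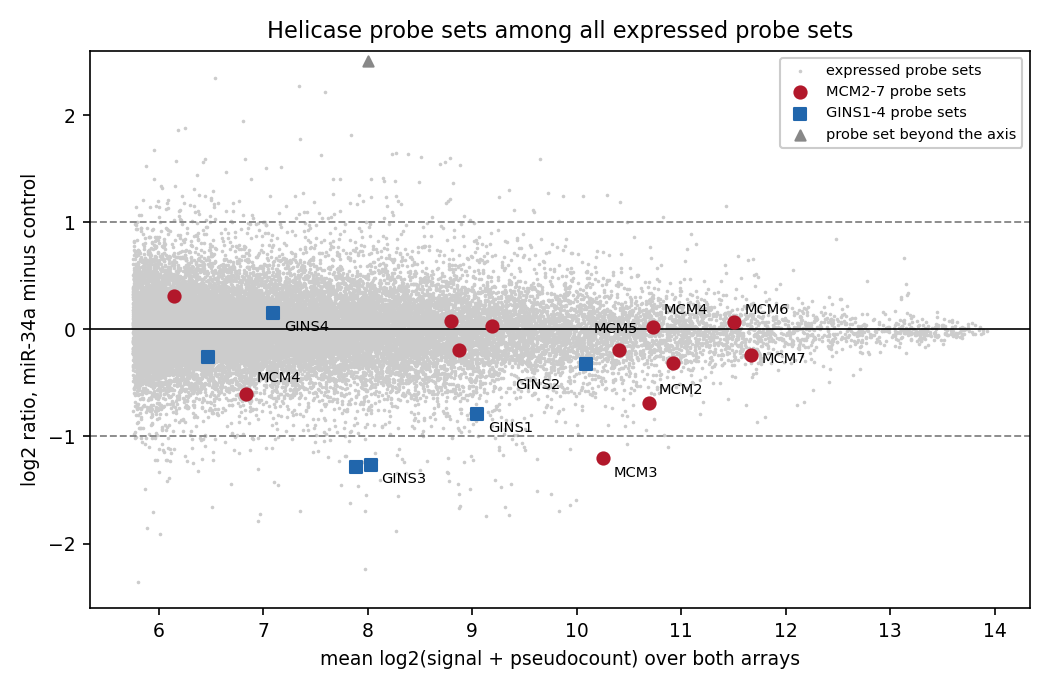
Log2 ratio (miR-34a minus control) against mean log2 level for 27307 expressed probe sets (grey), with MCM (circles) and GINS (squares) probe sets on top and labels on each gene's brightest one and on the dim MCM4 probe set. MCM3, at -1.20, lies among bright probe sets whose central 95% spans -0.50 to 0.43, and 1 grey probe set lies beyond the axis.

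Other replication complexes had narrower ranges of subunit ratios on these arrays. The ring spanned 1.27 and GINS 1.42 on the log2 scale. The origin recognition complex, which loads the ring, spanned 0.28 over 6 subunits, from ORC5 at -0.049 to ORC4 at 0.23. The clamp loader RFC spanned 0.45 over 5, from RFC3 at -0.45 to RFC5 at 0.0035. Polymerase epsilon, which travels with the helicase, spanned 0.20 over 4, as did the single-strand binding complex RPA over 3, and RNase H2 spanned 0.22. The widest of the others were polymerase delta, at 0.89 with POLD4 at 0.68 as its highest, and polymerase alpha-primase, at 0.71 with POLA1 at -0.53 as its lowest. With all expressed probe sets of a gene averaged, the ring spanned 1.39 and GINS 1.22, and the widest of the others, polymerase delta, 0.98. RNase H2 then spanned 0.073. Without GINS4, at the stricter filter, the GINS range of 0.94 was close to that of polymerase delta. These complexes were chosen after the values had been seen, ranges grow with the number of subunits, and the difference was not tested.

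**Figure D4:**
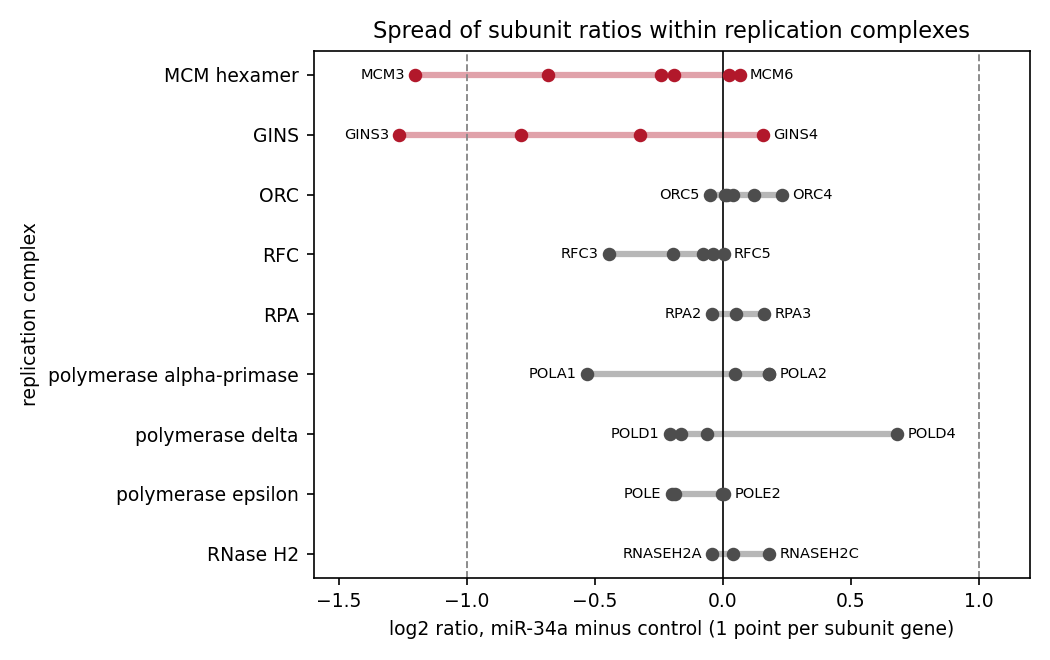
Log2 ratio (miR-34a minus control) of each subunit gene in 9 replication complexes, 1 point per gene on its brightest probe set, with the lowest and highest subunit named and dashed lines at 2-fold. The MCM ring and GINS span 1.27 and 1.42, and polymerase delta, the widest of the rest, 0.89.

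Among the partners that load, activate and unload the helicase, 0 genes were past 2-fold, against 0.548% lower and 0.595% higher of all expressed genes. The activation list had the lowest median of these lists. Of 11 genes for origin recognition and licensing, 6 were lower and 5 higher, against 50% lower among all expressed genes. Their median log2 ratio was -0.044. The lowest was GMNN, geminin, the inhibitor of the loading factor CDT1, at a log2 ratio of -0.84. It read 1270 in miR-34a cells and 2265 in control cells. MCMBP was next, at -0.46, and its other expressed probe set gave -0.83. Of the 9 expressed genes for helicase activation, 8 were lower, against 50% of all expressed genes. Their median was -0.21, and that of the 6 MCM genes was -0.22. DBF4B, a regulatory subunit for CDC7, was lowest at -0.74, but another of its 3 expressed probe sets gave 0.38, and TICRR, which brings the helicase partners to origins, was highest at 0.079. MCM10, which helps the assembled helicase start unwinding, read 434 in miR-34a cells and 635 in control cells, and its 3 expressed probe sets had log2 ratios between -0.54 and -0.49. CDC45, the remaining part of the active helicase, read 2485 in miR-34a cells and 2921 in control cells, a log2 ratio of -0.24. MTBP was under the filter.

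For the 6 helicase unloading genes the median was -0.082, from TRAIP, a ubiquitin ligase, at -0.37 to CUL2 at 0.20, and both TRAIP signals were within background. Of the MCM-related genes outside the ring, MCM8 was at -0.17 and MCM9 at -0.045. MCM3AP, which encodes a partner of MCM3, was at 0.022, with another probe set at 0.44, and MCMDC2 was under the filter. In the fork protection list TIMELESS was lowest at -0.13, and CLSPN was highest at 0.54 from a control signal within background, with another probe set at -0.082. None of these 3 lists held a gene past 1.5-fold on its brightest probe set, against 3.01% lower and 3.28% higher of all expressed genes. Another probe set of FAF1, an unloading gene at -0.18, gave 0.62.

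Genes for the machinery behind the helicase had ratios near 0 in most cases. The 12 polymerase and primase genes had a median of -0.032, the 10 clamp genes -0.076 with CHTF8 highest at 0.074, and the 9 genes for single-strand binding, flap removal and ligation -0.040, from the flap nuclease FEN1 at -0.28 to RNASEH2C at 0.18. Another RNASEH2C probe set gave -0.36. The 7 chromatin assembly genes had a median of -0.089, from SUPT16H at -0.34 to SSRP1 at 0.074. Among 4 nucleotide supply genes the thymidine kinase TK1 was lowest, at -0.78 and -0.84 on its probe sets, and RRM2 highest at 0.10. Over the 10 lists together, 75 of 78 genes were expressed, and 47 were lower and 28 higher, against 50% lower among all expressed genes. At 1.5-fold, 3 were lower and 1 higher, against 3.01% and 3.28% of all expressed genes. In either direction 0 were past 2-fold, against 0.548% lower and 0.595% higher. These shares are so small that 0 of 75 genes lies near them. Their median was -0.045.

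Upstream of the helicase genes, the 12 expressed E2F and pocket protein genes had a median of -0.046, with 7 lower and 0 past 1.5-fold. Of all expressed genes 50% were lower, and the shares past 1.5-fold were 3.01% lower and 3.28% higher. E2F2, an activating member, was lowest at -0.47, and E2F1 was at -0.058. TFDP2, an E2F partner, was highest at 0.53, with another probe set at -0.60. Of 9 G1/S cyclin and kinase genes, 7 were lower, against 50% of all expressed genes. At least 2-fold lower were 2 of the 9, against 0.548% of all expressed genes. These were CDK6 and CDK4, both known miR-34a targets that act before S phase, at -1.64 and -1.59. One CDK6 probe set gave -0.087. CCND1, a cyclin partner of both kinases, was highest in that list at 0.51.

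For the series as a whole, the median signal was 40.1 in miR-34a cells and 39.5 in control cells. The ratio of 3′ to 5′ signal, which grows with RNA degradation, was 3.53 in miR-34a cells and 3.07 in control cells for GAPDH, and for ACTB it was 4.54 in miR-34a cells and 4.30 in control cells. The part of RNA quality in the members' ratios was not tested. The erythroid markers GATA1, TAL1, KLF1, LMO2, NFE2, TFRC, HBE1 and HBZ all exceeded background on both arrays. Of these 8 genes, 7 were higher after miR-34a and 1 lower, against 50% lower among all expressed genes. Their median log2 ratio was 0.21, from TFRC, the transferrin receptor, at -0.12 to HBZ, the embryonic zeta globin, at 0.84. Only HBZ was past 1.5-fold, against 3.28% higher among all expressed genes. Other probe sets gave -0.10 for TAL1 and 0.059 for LMO2, beside 0.19 and 0.38 on their brightest ones. HBZ read 7672 in miR-34a cells and 4258 in control cells. Any relation of these marker ratios to the members' ratios was not tested. Of 10 markers of other cell types, 6 passed the filter, and CD3E, CD14 and CDH1 were under it. The 6 had a median log2 ratio of 0.038, from PECAM1 at -0.23 to PTPRC, a gene of most blood cells, at 0.49. Among them, MS4A1 and ALB were within background on both arrays. LYZ read 563 in miR-34a cells and 518 in control cells, and COL1A1 read 119 and 121, all above background. The number of arrays, 1 per group, limits the precision of every ratio.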

How the data were processed

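Each array measured cRNA labelled with biotin, prepared from 15 µg of Trizol-extracted RNA, per the labels' protocols. The authors deposited linear probe set intensity values for 2 arrays, with a lowest value of 1. The software, background correction and scaling behind them are not given in the sources, and dim probe sets depend most on these steps. The file had 0 columns of other samples.

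A pseudocount of 14.9, the 25th percentile of intensity, was added before taking log2, and the median ratio of expressed genes was subtracted. Expressed probe sets were those at or above the median mean level of 54613 probe sets other than controls (a signal of about 39.0). This lies below the background of 75.4, which 35.5% of these probe sets exceeded in miR-34a cells and 35.1% in control cells. The shares of all expressed genes therefore include genes within background. Only probe sets with 1 symbol in the platform annotation (41091) named genes, and 0 symbols needed an update through RefSeq gene IDs. A gene took its brightest expressed probe set. With 1 array per group, sizes were counted at 2-fold and 1.5-fold, and no test was made.

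Named genes were all members, other listed genes past 1.5-fold, and the highest and lowest of each list. CDC45, MCM10, MCMBP, FAF1, E2F1, MCM9, the ends of complexes, genes under the filter and the remaining markers were added after their values were seen. Some listed genes are not reported here. Members and lists were chosen with earlier results of these data known. Alternatives changed the pseudocount, filter, centring, normalization, probe set choice and threshold. The scripts were tested on simulated data. Tools were matplotlib 3.10.9, statsmodels 0.14.6, pandas 2.3.3, NumPy 2.4.6 and SciPy 1.17.1 under Python 3.11.15.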

Additional observations from a re-analysis of the deposited data

How the results depend on the processing

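MCM3 and GINS3 were at least 2-fold lower in all 10 settings, with ranges of -1.21 to -1.16 and -1.32 to -1.08, and GINS1, GINS2, MCM2, MCM5 and MCM7 were lower in every setting that measured them. MCM6 stayed between 0.064 and 0.19, while MCM4 ran from -0.12 to 0.057 and GINS4 from -0.052 to 0.17, both negative with probe sets averaged. With the size threshold at 1.5-fold, 4 members were lower, 384 of all expressed genes were lower and 419 higher, and 1 gene each was lower in the licensing, activation and nucleotide lists and 1 higher in the polymerase list. With 4 times the pseudocount the GINS range was 1.19, and 41 of all expressed genes were 2-fold lower and 28 higher. With the filter at the 75th percentile, which leaves out GINS4, the GINS median was -0.78 and its range 0.94, with 46 of all expressed genes lower and 42 higher. Without the _s_at, _x_at and _a_at probe sets, which leaves out MCM2, MCM7 and GINS2, the GINS median was -0.78, and 1 gene of the G1/S list was 2-fold lower. Without a filter 1 gene of the E2F list was 2-fold lower, and 206 of all genes were lower and 215 higher. No centring, quantile normalization and loess changed none of the counts of members. No paired analysis was possible because each group held 1 array. Dim signals limit GINS4 most.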
